A study of Mus musculus with 12 samples.

Results

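Whether loss of HDAC3 in microglia had the same effect on RNA after transient focal cerebral ischemia (tFCI) as after sham surgery was examined in all 12 of the 12 libraries of the series. The comparison was the difference of differences, (miKO-tFCI minus WT-tFCI) minus (miKO-Sham minus WT-Sham), with sequencing batch as a term, and it is called the interaction of genotype and surgery below. It was fitted for the 16451 genes with enough counts of the 55401 identifiers in the count files. Each combination of genotype (WT or miKO) and surgery (Sham or tFCI) was a group of 3 libraries of bulk RNA from sorted CD45int CD11b+ cells, the gate used for microglia, which are the resident macrophages of the brain.

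All mice were males that carried loxP-flanked HDAC3 on both chromosomes. WT mice were CX3CR1 wt/wt: HDAC3 loxp/loxp. The miKO mice were CX3CR1 CreER/wt: HDAC3 loxp/loxp, so that a tamoxifen-inducible Cre recombinase stood in place of one Cx3cr1 copy, and loss of that copy cannot be told apart from loss of HDAC3 in the miKO mice. Tamoxifen was injected at least a month before the surgery, and the methods do not say whether WT mice received it, so that an effect of the drug was not tested. Cx3cr1 is also expressed by other mononuclear phagocytes, so the driver is not restricted to microglia. By the methods, the wait after tamoxifen let HDAC3-expressing progenitors replace nearly all circulating monocytes. The study also reported that Hdac3 RNA fell in sorted microglia and was unchanged in sorted infiltrated macrophages. In tFCI the middle cerebral artery was occluded for 60 min and then reopened, and Sham animals had the operation without the occlusion. The cells were taken 3 days after tFCI, and 3 to 4 hemispheres were pooled for each library.

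HDAC3 is a histone deacetylase that works in complexes with the corepressors NCoR and SMRT, which inflammatory, lipid-sensing and other transcription factors bring to promoters and enhancers. Microglia at rest express few inflammatory genes, and ischemia makes them release cytokines and chemokines, divide, and take up debris and lipid. The interaction asks, gene by gene, whether the genotypes differed by the same factor in both states of the tissue.

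Counts on genes were between 7697864 and 9452222 per library (median 8226429). By the labels, replicate 1 of every group belonged to sequencing batch 1 and replicates 2 and 3 to batch 2. The closest pair of replicates was miKO-Sham replicates 1 and 2, with a chi-square of 2.82 per degree of freedom between their counts against 3.65 to 76.6 for the other 11 pairs, and their deposited files carried the same sample code. Their counts still differed by more than sampling noise. Along the direction that separates the batches in the other groups, miKO-Sham replicate 2 had a correlation of 0.164, on the side of the batch 1 libraries (0.144 to 0.603), whereas the other libraries of batch 2 had -0.065 to -0.498. Results were therefore also computed with miKO-Sham replicates 1 and 2 summed into 1 library, and with replicate 2 placed in batch 1. Whether they came from the same cells was not tested.

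Every miKO library had less Hdac3 RNA than every WT library of the same surgery. Its level in CPM (counts per 1000000 counts on genes, scaled by TMM) was 35.0, 44.0 and 46.4 CPM (WT-Sham), 25.8, 25.0 and 20.9 CPM (miKO-Sham), 54.0, 52.9 and 43.9 CPM (WT-tFCI) and 36.0, 27.1 and 28.9 CPM (miKO-tFCI). The Hdac3 difference between the genotypes was -0.81 in Sham and -0.71 after tFCI on the log2 scale, with an interaction of 0.10 (SE 0.23, adjusted p = 0.875), so no dependence on surgery was detected for the targeted gene. Cx3cr1, the fractalkine receptor gene that carries CreER, had an interaction of -0.16 (SE 0.24, adjusted p = 0.809), with a genotype difference of -1.68 in Sham and -1.84 after tFCI. Without miKO-tFCI replicate 1, the sign of the uncalled interaction turned for both genes. Of 13 tested genes of histone deacetylases and of their corepressor partners, which include Hdac3 itself and Ncor1, 0 were called for the interaction at an adjusted p under 0.05 (median 0.09). Over all genes tested the share was 3.82%, so 0 calls among 13 genes do not set this list apart.

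The cells expressed the defining genes of microglia in every group, and markers of other cells moved with the groups. The summed level of 10 microglia markers (among them P2ry12, Tmem119 and Sall1) was 29217 to 38598 CPM (WT-Sham), 27203 to 32235 CPM (miKO-Sham), 20874 to 23228 CPM (WT-tFCI) and 10427 to 20218 CPM (miKO-tFCI). These markers include Cx3cr1, of which the miKO mice had lost a copy to CreER, so the allele itself enters the sum. Fcrls and Olfml3, which were called with a lower interaction, are also among them. All sums take in every listed marker, tested or not. Markers of monocytes and macrophages (9 of 10 tested) summed to 37.7 to 103 CPM (WT-Sham), 70.6 to 196 CPM (miKO-Sham), 125 to 247 CPM (WT-tFCI) and 497 to 726 CPM (miKO-tFCI), so that miKO-tFCI lay above the other groups. One of these markers, F13a1, is also in the list of border-associated macrophages. Markers of neutrophils (9 of 10 tested) summed to 633 to 1376, 1063 to 1131, 497 to 574 and 914 to 1190 CPM in the same order, so that the genotypes overlapped in Sham and miKO lay above WT after tFCI, and the median interaction over these 9 genes was 1.67, with Csf3r as the one called (lower). After tFCI, markers of dendritic cells (7 of 8 tested) summed to 21.2 to 123 CPM (WT) and 59.6 to 362 CPM (miKO), and those of endothelial cells (8 of 8 tested) to 64.4 to 181 CPM and 114 to 303 CPM. The genotypes overlapped for both, and the miKO-Sham sums were lower, at 15.4 to 16.6 CPM and 12.9 to 20.9 CPM. Markers of border-associated macrophages (10 of 10 tested) summed to 580 to 716 CPM (WT-Sham), 1441 to 1674 CPM (miKO-Sham), 701 to 1038 CPM (WT-tFCI) and 989 to 2180 CPM (miKO-tFCI). Those of B cells were lower in miKO after tFCI, at 186 to 203 CPM against 298 to 357 CPM in WT, and overlapped in Sham. Neuron markers were higher in miKO-Sham (11.8 to 16.1 CPM) than in WT-Sham (1.95 to 2.88 CPM) and overlapped after tFCI. Astrocyte and oligodendrocyte sums were lower in miKO-Sham than in WT-Sham and overlapped after tFCI. Cd22, Folr2 and Rbfox3 were called lower and Pecam1 higher. The part of these cells in the interaction was not tested. In these bulk samples fewer cells of a type and less RNA per cell cannot be told apart.

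The miKO effect differed between Sham and tFCI for 629 genes, 3.82% of those tested, at a Benjamini-Hochberg adjusted p under 0.05 in edgeR's quasi-likelihood test. For 206 of them (1.25% of the genes tested) the miKO minus WT difference was higher after tFCI than in Sham, and for 423 (2.57%) it was lower. The median interaction of all tested genes was -0.02, and each of the 629 exceeded 0.58 in absolute log2, the fold threshold of the study's methods. Within the batches, 628 of the 629 had the same sign in batch 1 as in batch 2, though they had been called on these same libraries. For the genotype effects themselves, 18.1% of the genes were called in miKO-Sham vs. WT-Sham (2970 genes) and 9.9% in miKO-tFCI vs. WT-tFCI (1629 genes).

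**Figure D1:**
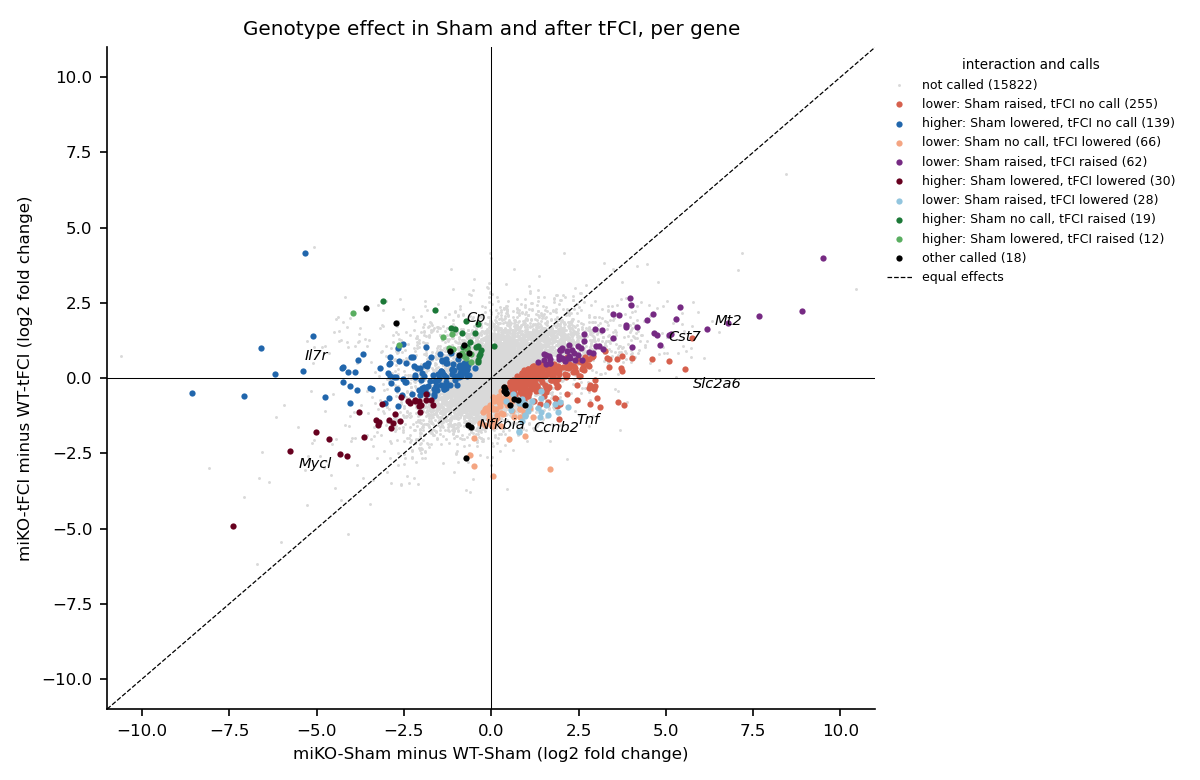
Log2 difference between the genotypes after tFCI (vertical) against that in Sham (horizontal) for the 16451 genes tested, with the 629 genes called for the interaction coloured by kind and a dashed line where both are equal. The fullest kind, 255 genes, lies to the right and close to the horizontal axis, raised in miKO-Sham and without a call after tFCI.

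The called genes were sorted into kinds by whether miKO was called above WT (raised), below WT (lowered) or neither in each surgery. These calls use the same libraries as the interaction, so the kinds describe the levels and do not test them, and no call does not show that the genotypes were alike. In 255 genes miKO was raised in Sham with no call after tFCI. In 62 it was raised in both, by less after tFCI, and in 28 it was raised in Sham and lowered after tFCI. In 66 it was lowered after tFCI with no call in Sham. The fullest kind among the genes with a higher interaction was lowered in Sham with no call after tFCI (139 genes), before those lowered in both (30), raised after tFCI only by call (19), and lowered in Sham but raised after tFCI (12). The remaining 18 genes had no call in either surgery (15) or were lowered in both and by more after tFCI (3). WT-Sham was the lowest group for 336 of the 629 genes and miKO-Sham for 190, whereas WT-tFCI was lowest for 31 and miKO-tFCI for 72.

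**Figure D2:**
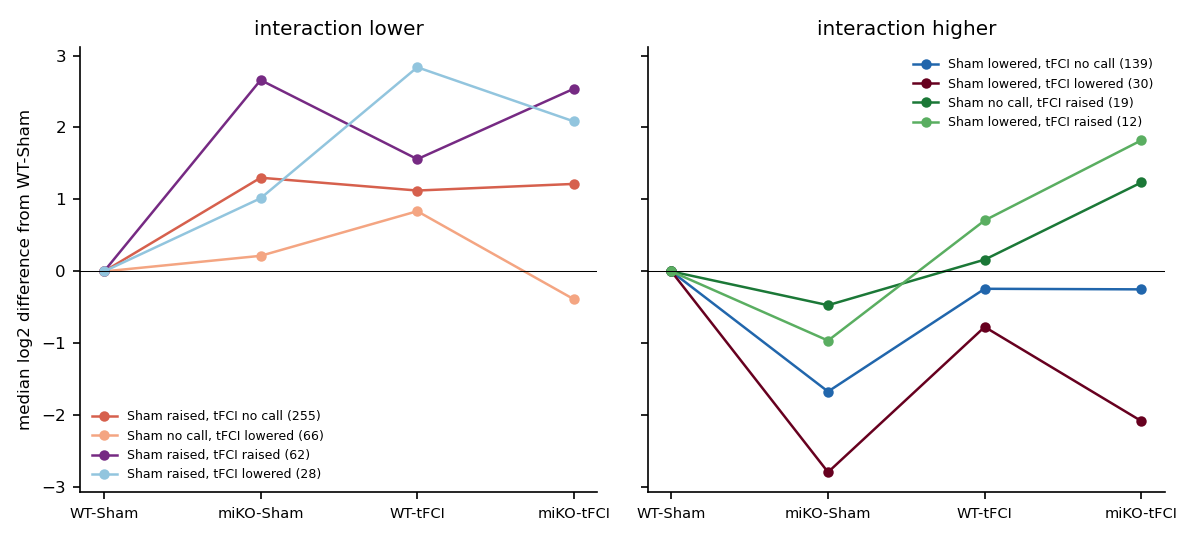
Median log2 difference from WT-Sham in each group, for the 4 kinds with a lower interaction (left) and the 4 with a higher interaction (right), each with its number of genes. For the 255 genes raised in Sham alone by call, miKO-Sham stood 1.30 above WT-Sham, while WT-tFCI (1.12) and miKO-tFCI (1.22) were nearly level with each other.

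By the median of the fullest kind, the rise of miKO-Sham over WT-Sham was close to that of WT-tFCI over WT-Sham, and single genes lay on both sides of this, with Trem2 higher in miKO-Sham and Irf7 higher in WT-tFCI. The median log2 difference over its 255 genes was 1.30 for miKO-Sham over WT-Sham, 1.12 for WT-tFCI over WT-Sham, and -0.14 for miKO-tFCI over miKO-Sham. Slc2a6 (ENSMUSG00000036067.12, chromosome 2, 27021363 to 27027998 on the minus strand of GRCm38), which encodes the hexose transporter GLUT6 of lysosomal membranes, had the lowest adjusted p of the named genes. Its level was 2.28, 2.13 and 3.08 CPM (WT-Sham), 126, 122 and 100.3 CPM (miKO-Sham), 102, 133 and 134 CPM (WT-tFCI) and 119, 176 and 158 CPM (miKO-tFCI). WT-Sham stood far below the other 3 groups, and the genotypes overlapped after tFCI. The interaction of Slc2a6 was -5.25 (SE 0.26, adjusted p = 7.04e-08), from a genotype difference of 5.54 in Sham and 0.29 after tFCI.

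Il1b, which encodes the pro-inflammatory cytokine interleukin-1β, was at 50.7, 38.1 and 33.0 CPM (WT-Sham), 348, 358 and 274 CPM (miKO-Sham), 411, 531 and 491 CPM (WT-tFCI) and 524, 224 and 229 CPM (miKO-tFCI). Sham libraries of the genotypes did not overlap, and after tFCI miKO replicate 1 was as high as WT while replicates 2 and 3 were lower than every WT library. The interaction was -3.68 (SE 0.35, adjusted p = 6e-05), and it was -2.42 within batch 1 and -4.31 within batch 2. Cyp4f18, an enzyme that inactivates the lipid mediator leukotriene B4, was at 2.16, 1.34 and 1.74 CPM (WT-Sham), 56.4, 47.4 and 25.0 CPM (miKO-Sham), 71.7, 73.4 and 79.7 CPM (WT-tFCI) and 118, 116 and 113 CPM (miKO-tFCI). It was higher in miKO than in WT in all libraries of both surgeries, by 4.59 in Sham and 0.62 after tFCI, and the interaction was -3.97 (SE 0.35, adjusted p = 3.99e-05). On the CPM scale, however, the genotype difference of Cyp4f18 was nearly the same in both surgeries (-0.30 CPM between them), since the log2 scale compares factors. The other genes named by size in this kind were the nuclease and helicase gene Dna2 (-3.30, SE 0.43, adjusted p = 0.00068) and Cox6a2, a subunit of cytochrome c oxidase (-3.24, SE 0.50, adjusted p = 0.00216).

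Of the 62 genes raised in both surgeries, miKO-Sham was the highest group for 37 and miKO-tFCI for 25. The median difference between the genotypes was 2.66 in Sham and 1.02 after tFCI. Clec7a, which encodes the pattern receptor dectin-1, was at 20.6, 16.2 and 15.9 CPM (WT-Sham), 546, 540.2 and 258 CPM (miKO-Sham), 90.8, 93.9 and 78.3 CPM (WT-tFCI) and 158, 233 and 348 CPM (miKO-tFCI). Every miKO library was above every WT library of the same surgery, and the interaction was -3.18 (SE 0.41, adjusted p = 0.000675). Cst7, the gene of the protease inhibitor cystatin F, was at 11.8, 8.85 and 13.6 CPM (WT-Sham), 393, 394 and 197 CPM (miKO-Sham), 213, 258 and 237 CPM (WT-tFCI) and 416, 537 and 549 CPM (miKO-tFCI), with WT-Sham apart from all other groups and an interaction of -3.76 (SE 0.35, adjusted p = 5.56e-05). For Mt2, a metallothionein that binds zinc and copper and shares sequence with Mt1, the interaction was -4.54 (SE 0.65, adjusted p = 0.00137), and for AB124611 it was -3.33 (SE 0.40, adjusted p = 0.000406).

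Apoe, which encodes the main lipid carrier of the brain, turned on the libraries doubted above. Its level was 1512, 978 and 897 CPM (WT-Sham), 64078, 65549 and 12774 CPM (miKO-Sham), 4658, 5386 and 5129 CPM (WT-tFCI) and 13096, 34445 and 29398 CPM (miKO-tFCI). miKO-Sham replicates 1 and 2 were about alike and far above replicate 3, which lay near miKO-tFCI replicate 1. The interaction of Apoe was -3.04 (SE 0.67, adjusted p = 0.0199), and with miKO-Sham replicates 1 and 2 summed the adjusted p was 0.0569, no longer past the threshold. For 13 of the 62 genes the sign was opposite on the CPM scale. One of them was Plin2, which coats lipid droplets, at 56.4, 48.0 and 57.5 CPM (WT-Sham), 961, 1002 and 355 CPM (miKO-Sham), 792, 991 and 911 CPM (WT-tFCI) and 1956, 3279 and 3478 CPM (miKO-tFCI). Its interaction was -2.16 (SE 0.44, adjusted p = 0.0124) on the log2 scale, while the genotype difference in CPM was 1288 greater after tFCI than in Sham.

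A further 28 genes were raised in miKO-Sham and lowered in miKO-tFCI, and inflammatory mediators and genes of cell division were among them. Their median difference between the genotypes was 1.02 in Sham and -0.90 after tFCI, and WT-tFCI was the highest group for 27 of the 28. Tnf (ENSMUSG00000024401.14, chromosome 17, 35199381 to 35202007), which encodes tumor necrosis factor, was at 66.6, 93.0 and 70.3 CPM (WT-Sham), 388, 392 and 252 CPM (miKO-Sham), 382, 685 and 683 CPM (WT-tFCI) and 188, 344 and 364 CPM (miKO-tFCI). The genotypes did not overlap in either surgery, with miKO higher in Sham and lower after tFCI. Its interaction was -3.18 (SE 0.33, adjusted p = 0.00014), and within batches 1 and 2 it was -3.56 and -2.91.

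Ccl3, a chemokine that attracts monocytes and other leukocytes, was at 946, 709 and 498 CPM (WT-Sham), 1638, 1664 and 927 CPM (miKO-Sham), 1569.7, 2110.1 and 2000.1 CPM (WT-tFCI) and 579, 876 and 945 CPM (miKO-tFCI). WT-Sham replicate 1 slightly exceeded miKO-Sham replicate 3, and after tFCI every miKO library was below the lowest of WT. The interaction of Ccl3 was -2.22 (SE 0.38, adjusted p = 0.00443), with 0.98 in Sham and -1.24 after tFCI. Its neighbour Ccl4 had 0.88 and -1.43, with an interaction of -2.31 (SE 0.36, adjusted p = 0.00262). Tlr2, which encodes a receptor for bacterial lipoproteins, was at 141, 149 and 144 CPM (WT-Sham), 342, 323 and 227 CPM (miKO-Sham), 475, 821 and 792 CPM (WT-tFCI) and 214, 344 and 420.4 CPM (miKO-tFCI), with no overlap of the genotypes in either surgery and an interaction of -2.15 (SE 0.32, adjusted p = 0.00159). The remaining top genes of this kind were Cdca3, a cell division gene (-2.85, SE 0.40, adjusted p = 0.00112), the survival gene Bcl2a1d, whose near-identical copies make its counts uncertain (-2.76, SE 0.29, adjusted p = 0.00014), AI504432 (-2.70, SE 0.58, adjusted p = 0.0179) and Cd5l, a secreted protein of macrophages (-2.69, SE 0.55, adjusted p = 0.0134), which had no count in WT-Sham replicate 1. Gpr84, a receptor for medium-chain fatty acids that was picked after its values were seen, was at 149, 177 and 166 CPM (WT-Sham), 263, 256 and 331 CPM (miKO-Sham), 412, 637 and 649 CPM (WT-tFCI) and 137, 193 and 172 CPM (miKO-tFCI), with an interaction of -2.54 (SE 0.21, adjusted p = 3.07e-05).

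In 66 genes the genotypes had no called difference in Sham, and miKO was lower after tFCI, with medians of 0.22 and -1.02. Slc24a1, an exchanger of sodium, calcium and potassium, was at 3.73, 5.71 and 6.36 CPM (WT-Sham), 6.53, 5.55 and 3.97 CPM (miKO-Sham), 13.4, 21.1 and 21.9 CPM (WT-tFCI) and 2.06, 3.14 and 0.618 CPM (miKO-tFCI). WT-tFCI was above every other library and miKO-tFCI below all of them, and the interaction was -3.29 (SE 0.58, adjusted p = 0.00483). Tnfsf9, the ligand of the costimulatory receptor 4-1BB, was at 4.69, 2.35 and 3.69 CPM (WT-Sham), 8.33, 6.94 and 5.76 CPM (miKO-Sham), 51.0, 105 and 91.6 CPM (WT-tFCI) and 26.4, 17.1 and 22 CPM (miKO-tFCI), with WT-tFCI above all other groups and an interaction of -2.89 (SE 0.43, adjusted p = 0.00165). The other 3 genes named by size, Spag5 (-2.49, SE 0.65, adjusted p = 0.0454), Ccnb2 (-2.19, SE 0.42, adjusted p = 0.00938) and Pimreg (-2.11, SE 0.51, adjusted p = 0.0336), take part in mitosis, and with miKO-Sham replicates 1 and 2 summed the adjusted p was 0.0728 for Spag5 and 0.0567 for Pimreg.

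Among the genes with a higher interaction, 139 were lowered in miKO-Sham with no call after tFCI. Their medians were -1.67 in miKO-Sham vs. WT-Sham, 0.12 in miKO-tFCI vs. WT-tFCI and 1.54 in miKO-tFCI vs. miKO-Sham, and miKO-Sham was the lowest group for 131 of them. Il7r, the α chain of the interleukin-7 receptor, was at 35.5, 26.2 and 21.7 CPM (WT-Sham), 0.694, 0.694 and 2.69 CPM (miKO-Sham), 17.2, 7.96 and 9.38 CPM (WT-tFCI) and 28.1, 8.42 and 9.27 CPM (miKO-tFCI). miKO-Sham was the only group under 3 CPM, and after tFCI the genotypes overlapped, with replicate 1 the highest in both. The interaction was 4.59 (SE 0.58, adjusted p = 0.000553). Rcn1, a calcium-binding protein of the endoplasmic reticulum, was at 11.7, 11.7 and 10.2 CPM (WT-Sham), 1.39, 0.139 and 2.18 CPM (miKO-Sham), 28.4, 15.9 and 15.2 CPM (WT-tFCI) and 41.6, 14.2 and 21.3 CPM (miKO-tFCI), again with miKO-Sham apart from the other groups, and its interaction was 3.51 (SE 0.56, adjusted p = 0.00285). The values were 3.46 (SE 0.74, adjusted p = 0.0175) for the collagen gene Col6a3, 3.38 (SE 0.49, adjusted p = 0.00143) for Ncs1, a neuronal calcium sensor, and 3.20 (SE 0.42, adjusted p = 0.000675) for the junctional adhesion gene Jam3, which shares exon sequence with an antisense gene.

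The 30 genes lowered in both surgeries were lowered by less after tFCI, with medians of -2.79 in Sham and -1.17 after tFCI. Upk1b, a tetraspanin, was at 165, 186 and 219 CPM (WT-Sham), 0.278, 1.11 and 1.92 CPM (miKO-Sham), 38.1, 30.5 and 29.9 CPM (WT-tFCI) and 1.55, 1.13 and 0.494 CPM (miKO-tFCI), at or below 1.92 CPM in all 6 miKO libraries, with an interaction of 2.48 (SE 0.58, adjusted p = 0.0269). Khdrbs3, an RNA-binding protein (2.67, SE 0.41, adjusted p = 0.00235), Sult1a1, a sulfotransferase (2.26, SE 0.34, adjusted p = 0.00205), and Abi2, a regulator of actin (1.95, SE 0.24, adjusted p = 0.000449), followed. For Mycl, a transcription factor of the MYC family, the interaction was 3.32 (SE 0.87, adjusted p = 0.0483), and the adjusted p was 0.0528 with miKO-Sham replicates 1 and 2 summed. Its level was 11.2, 18.4 and 16.8 CPM (WT-Sham), 0.139, 0.555 and 0.128 CPM (miKO-Sham), 5.98, 3.23 and 7.07 CPM (WT-tFCI) and 1.65, 0.251 and 0.989 CPM (miKO-tFCI). The fold of Mycl thus rests on few counts in miKO, and it stayed called under 8 of 21 alternatives.

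Another 19 genes were raised after tFCI with no call in Sham, and 12 were lowered in Sham and raised after tFCI. Cp, the gene of ceruloplasmin, which carries copper and oxidizes iron, was at 13.6, 19.5 and 19.3 CPM (WT-Sham), 10.1, 8.74 and 19.1 CPM (miKO-Sham), 54.8, 24.4 and 21.4 CPM (WT-tFCI) and 145, 61.2 and 77.7 CPM (miKO-tFCI). miKO-tFCI was above every other library, and its interaction was 1.98 (SE 0.50, adjusted p = 0.0393). With miKO-Sham replicates 1 and 2 summed, the adjusted p of Cp was 0.0799. The kinds of 19 and 12 genes were beyond the rule for naming, and the following genes were picked after their values were seen. Ccr1, a chemokine receptor of myeloid cells, went from 30.5 to 35.2 CPM over the WT-tFCI libraries to 69.0 to 182 CPM over those of miKO-tFCI, with an interaction of 2.18 (SE 0.52, adjusted p = 0.0302). Nbl1, which encodes an antagonist of bone morphogenetic proteins, was at 13.9, 6.39 and 8.10 CPM (WT-Sham), 2.50, 1.11 and 1.28 CPM (miKO-Sham), 71.6, 19.5 and 19.6 CPM (WT-tFCI) and 173, 34.2 and 42.4 CPM (miKO-tFCI). The interaction of Nbl1 was 3.72 (SE 0.38, adjusted p = 0.000128), and replicate 1 was above the others in all 4 groups. Both Ccr1 and the summed monocyte markers were highest in miKO-tFCI, and whether they are linked was not tested.

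**Figure D3:**
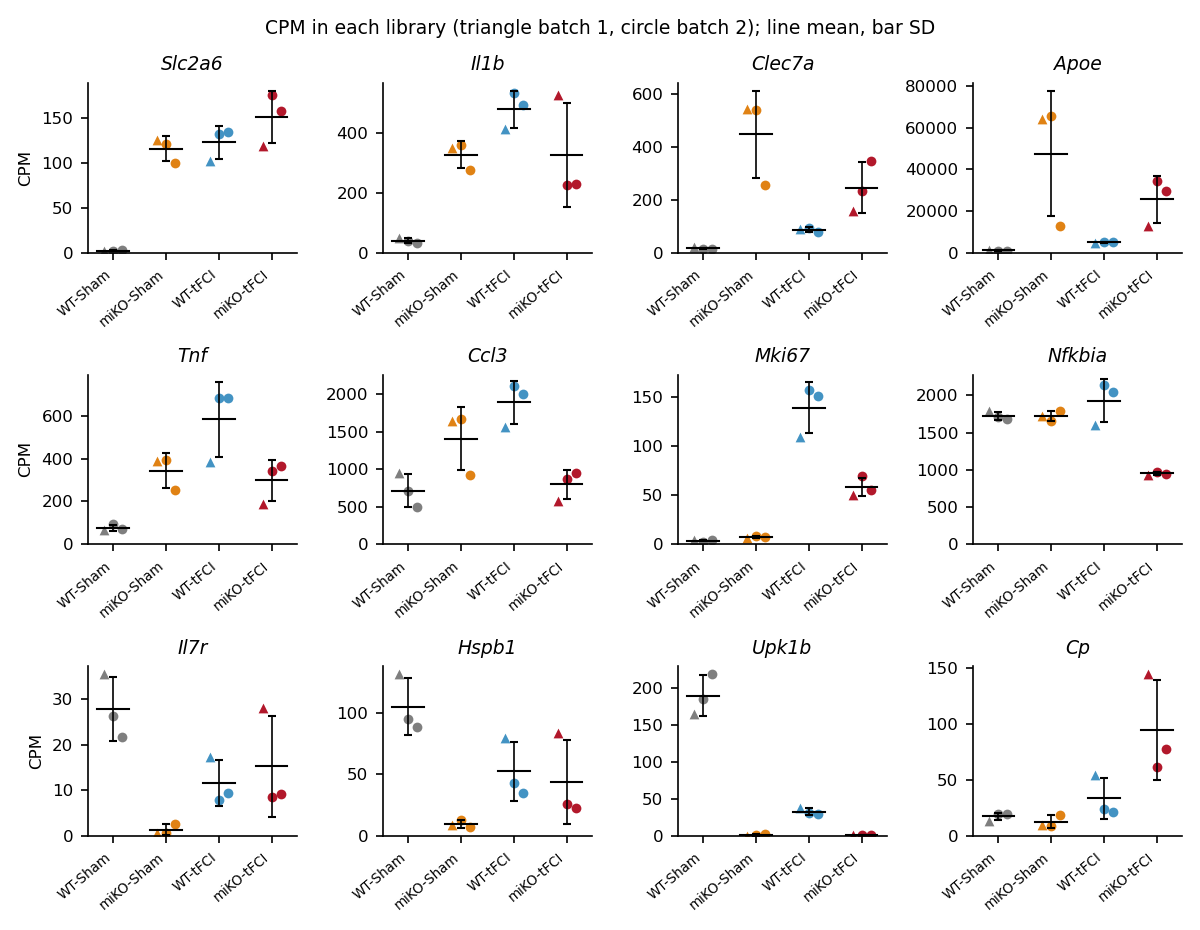
CPM of 12 genes in each library, with replicate 1 (batch 1) as triangles, replicates 2 and 3 (batch 2) as circles, the mean as a line and the SD as a bar. Slc2a6 and Il1b were low in WT-Sham alone, Nfkbia was low in miKO-tFCI alone, Il7r and Hspb1 were lowest in miKO-Sham, and Apoe of miKO-Sham replicate 3 (12774 CPM) lay far below replicates 1 and 2.

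Genes of cell division were called lower and never higher. Of 46 tested genes of chromosome segregation and mitosis, 16 were called with a lower interaction and 0 with a higher one (34.8% against 3.82% of all genes), and the median was -1.33 against -0.02. With miKO-Sham replicates 1 and 2 summed, 18 were called. Mki67 (ENSMUSG00000031004.8, chromosome 7, 135689784 to 135716361), which encodes the proliferation marker Ki-67, was at 4.69, 2.91 and 4 CPM (WT-Sham), 6.53, 8.46 and 7.68 CPM (miKO-Sham), 109.9, 157 and 151 CPM (WT-tFCI) and 50.8, 69.4 and 55.6 CPM (miKO-tFCI). The RNA was low in both Sham groups, though higher in miKO, and it was higher after tFCI in WT than in miKO without overlap. The interaction was -2.20 (SE 0.27, adjusted p = 0.00042), and in both genotypes the level was higher after tFCI than in Sham, by 5.15 in WT and 2.95 in miKO. Top2a, the topoisomerase that untangles replicated chromosomes, was at 3.01, 3.70 and 3.80 CPM (WT-Sham), 8.75, 8.60 and 6.28 CPM (miKO-Sham), 105, 135 and 122 CPM (WT-tFCI) and 63.5, 74.3 and 75.3 CPM (miKO-tFCI), with no overlap of the genotypes in either surgery and an interaction of -1.93 (SE 0.24, adjusted p = 0.00042). Cdk1, the kinase that drives entry into mitosis, had 0.68 in Sham and -0.69 after tFCI, with an interaction of -1.37 (SE 0.24, adjusted p = 0.00453).

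The other called members were the cyclins Ccnb2 and Ccna2, the mitotic kinase Plk1, the kinetochore genes Cenpe and Cenpf, Birc5 and Incenp of the chromosomal passenger complex, Cdca3, Cdc20, an activator of the anaphase-promoting complex, the spindle factor Tpx2, the condensin genes Smc4 and Ncapd2, and Racgap1, which acts in cytokinesis. Their interactions lay between -2.85 (Cdca3) and -0.78 (Ccna2). Of all 16, only Mki67, Top2a, Cdk1, Ccnb2, Cenpe, Cdca3 and Cdc20 stayed called under every alternative that held a value for them. Ccna2 stayed called under 7 of 22 alternatives, and Plk1 under 12 of 21. All 16 were lower in miKO-tFCI than in WT-tFCI by estimate, 14 of them by call. In Sham, 7 were raised by call (Mki67, Top2a, Cdk1, Cdc20, Cdca3, Ncapd2 and Incenp), and the estimates of the rest ran from -0.01 (Cenpf) to 0.97 (Ccnb2). In Sham most of these genes were under 10 CPM, where counting error is large. Of 39 genes of DNA replication, 5 were called lower (12.8%, median -0.61), with Gins1, Prim1, Lig1 and Chaf1b among them. For Lig1, which joins DNA strands, the genotypes differed by 0.62 in Sham and -0.54 after tFCI, whereas Gins1, Prim1 and Chaf1b were raised in Sham, by 1.71 (Prim1) to 1.76 (Chaf1b), with no call after tFCI. The interaction of Chaf1b stayed called under 9 of 21 alternatives.

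**Figure D4:**
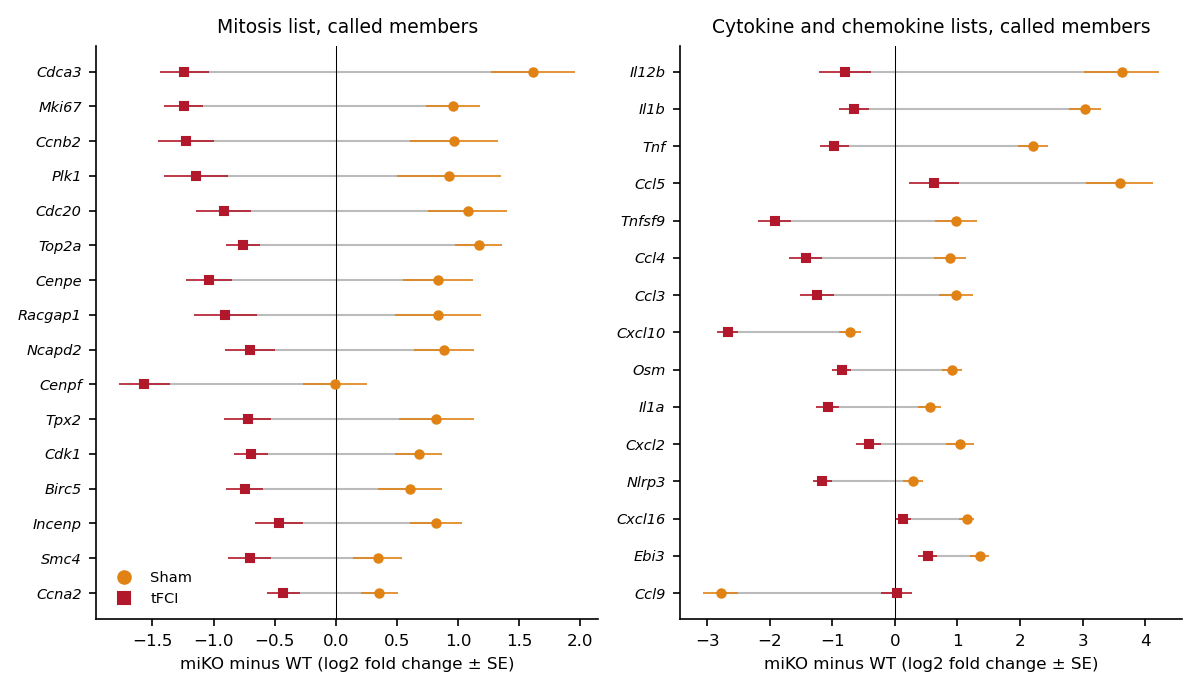
Log2 difference between the genotypes with its SE in Sham (circles) and after tFCI (squares) for the called genes of the mitosis list (left) and of the cytokine and chemokine lists (right), in order of the interaction. Genes with at most about 3 counts in every library of a group are left out. All mitosis genes lie below 0 after tFCI, and Ccl9 alone has its Sham value below its tFCI value.

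The promoters of the mitosis list shared a short sequence. A core of the cell cycle homology region, TTTGAA, which the DREAM complex and B-MYB bind in mitotic genes, was searched on both strands from 250 bases before to 50 bases after each start in RefSeq on GRCm38.p6. It occurred in 71.4% of the 42 promoters of the list, in 17.9% of all 32851 promoters and in 12.5% of those of tested genes. The promoters of the DNA replication list held it in 10.8%, and those of called genes in 18.3%. The list shares cover all members, called or not. A match is a run of letters and not a shown binding site. Below are 3 promoters with matches in capitals, shown because their genes carry the interaction among the mitotic genes (Mki67, chr7:135716330-135716629; Cdk1, chr10:69352863-69353162; Ccnb2, chr9:70421505-70421804; all on the minus strand, printed 5′ to 3′ along the gene).
Mki67: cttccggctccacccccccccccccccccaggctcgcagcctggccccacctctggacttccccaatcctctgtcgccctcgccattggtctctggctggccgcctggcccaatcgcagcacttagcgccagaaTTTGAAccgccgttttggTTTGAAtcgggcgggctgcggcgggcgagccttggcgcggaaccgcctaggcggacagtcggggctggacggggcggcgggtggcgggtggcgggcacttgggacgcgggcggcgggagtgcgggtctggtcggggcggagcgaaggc
Cdk1: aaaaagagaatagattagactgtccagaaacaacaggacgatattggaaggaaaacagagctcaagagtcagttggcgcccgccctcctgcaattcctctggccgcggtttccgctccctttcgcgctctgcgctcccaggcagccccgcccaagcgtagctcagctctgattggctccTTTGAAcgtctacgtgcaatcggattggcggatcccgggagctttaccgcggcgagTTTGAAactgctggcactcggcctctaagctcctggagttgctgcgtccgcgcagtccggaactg
Ccnb2: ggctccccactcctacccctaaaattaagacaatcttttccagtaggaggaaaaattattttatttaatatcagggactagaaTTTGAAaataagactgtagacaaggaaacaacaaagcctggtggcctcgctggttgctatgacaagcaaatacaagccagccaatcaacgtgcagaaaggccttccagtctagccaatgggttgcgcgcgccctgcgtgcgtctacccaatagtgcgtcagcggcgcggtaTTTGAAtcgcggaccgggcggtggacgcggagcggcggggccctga

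Cytokine genes were the list with the greatest share of calls. The shares of this and the following lists stand against 3.82% of all genes tested. The lists were written with earlier results of these data known. Of 22 tested members of the cytokine and inflammasome list, 9 were called lower and 0 higher (40.9%, median -0.87), and 7 were called with miKO-Sham replicates 1 and 2 summed. Alongside Tnf, Il1b and Tnfsf9 these were Il1a, Osm, Il12b, Nlrp3, Ebi3 and Il23a. Il1a, which encodes interleukin-1α, was at 191, 287 and 328 CPM (WT-Sham), 352, 345 and 456 CPM (miKO-Sham), 434, 667 and 614 CPM (WT-tFCI) and 172, 270.1 and 390.0 CPM (miKO-tFCI), with no overlap of the genotypes in either surgery and an interaction of -1.63 (SE 0.26, adjusted p = 0.00266). Osm, the gene of oncostatin M, was at 102, 104 and 95.3 CPM (WT-Sham), 206, 190.3 and 167 CPM (miKO-Sham), 244, 358 and 359.9 CPM (WT-tFCI) and 154, 183 and 194 CPM (miKO-tFCI), also without overlap, and its interaction was -1.76 (SE 0.22, adjusted p = 0.000449). Nlrp3, the sensor of the inflammasome that processes interleukin-1β, had no call in Sham (0.29) and was lower in miKO after tFCI (-1.16), with an interaction of -1.45 (SE 0.22, adjusted p = 0.00205). Il12b, a subunit of interleukins 12 and 23, was at or below 0.41 CPM (WT-Sham), 2.22 to 3.97 CPM (miKO-Sham), 6.10 to 9.50 CPM (WT-tFCI) and 4.15 to 4.65 CPM (miKO-tFCI). Il23a reached only 2.08 CPM in any library and gets no fold here, and its adjusted p was 0.0908 with the summed library. Ebi3, a partner subunit of interleukin-12 family cytokines, was raised in both surgeries (-0.83, SE 0.21, adjusted p = 0.0433), and its adjusted p was 0.0806 with the summed library.

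Chemokine ligands moved in both directions. Of 21 tested, 6 were lower (Ccl3, Ccl4, Ccl5, Cxcl2, Cxcl10 and Cxcl16) and 1, Ccl9, was higher (33.3% in all, median -0.74). Cxcl10, an interferon-induced ligand of the receptor CXCR3, was at 26.4, 37.8 and 34.9 CPM (WT-Sham), 18.9, 22.3 and 18.7 CPM (miKO-Sham), 251, 397 and 385 CPM (WT-tFCI) and 57.7, 48.0 and 52.9 CPM (miKO-tFCI). WT-tFCI stood far above the other groups, miKO was below WT in both surgeries without overlap, and the interaction was -1.96 (SE 0.24, adjusted p = 0.000415). The gene shares exon sequence with Art3 on the other strand, and the kit does not mark strand. Ccl9, a ligand of CCR1, was at 143, 124 and 105 CPM (WT-Sham), 14.4, 11.7 and 28.1 CPM (miKO-Sham), 179, 176 and 149 CPM (WT-tFCI) and 119.8, 195 and 204 CPM (miKO-tFCI), with miKO-Sham below all other libraries and an interaction of 2.81 (SE 0.37, adjusted p = 0.000729). Ccl5 was at 1.68, 1.79 and 0 CPM (WT-Sham), 13.5, 17.5 and 8.20 CPM (miKO-Sham), 25.9, 13.8 and 11.9 CPM (WT-tFCI) and 46.6, 17.3 and 18.4 CPM (miKO-tFCI), with an interaction of -2.97 (SE 0.68, adjusted p = 0.0247). It stayed called under 14 of 21 alternatives. The call was lost with DESeq2 and when any single WT-tFCI library was left out. For Cxcl2 the interaction was -1.47 (SE 0.30, adjusted p = 0.0142), but -0.25 within batch 1 and -2.05 within batch 2, and for Cxcl16 it was -1.02 (SE 0.17, adjusted p = 0.00436).

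Genes of the IκB family, whose products bind NF-κB and mostly restrain it, were the called members of a list for this transcription factor of inflammation. Of 18 tested NF-κB subunits and inhibitors, 5 were called lower and 0 higher (27.8%, median -0.60). Nfkbia, which encodes the inhibitor IκBα and is itself induced by NF-κB, was at 1787, 1706 and 1683 CPM (WT-Sham), 1730.3, 1652 and 1791 CPM (miKO-Sham), 1598, 2140.1 and 2044 CPM (WT-tFCI) and 933, 978 and 944 CPM (miKO-tFCI). The first 2 groups overlapped, WT-tFCI was about level with them or higher, and all miKO-tFCI libraries were lower than every other library. Its interaction was -1.01 (SE 0.20, adjusted p = 0.00918), from no called difference in Sham (adjusted p = 0.997) and -1.01 after tFCI. Nfkbiz, which encodes the nuclear protein IκBζ, behaved in the same direction (-1.18, SE 0.26, adjusted p = 0.0211), as did Nfkbib (-0.79, SE 0.17, adjusted p = 0.0188). Nfkbid was raised in Sham and lowered after tFCI (-1.65, SE 0.29, adjusted p = 0.00553), and Bcl3 was raised in Sham with no call after tFCI (-1.47, SE 0.29, adjusted p = 0.00974). The subunit genes did not pass the threshold, with adjusted p values of 0.0718 for Nfkb1, 0.0969 for Relb, 0.105 for Nfkb2, 0.13 for Rela and 0.823 for Rel.

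A core of the NF-κB site, GGNNTTTCC, searched on both strands so that its reverse complement counts as well, was found in 42.9% of the 21 promoters of the cytokine list, 42.1% of the 19 of the NF-κB list and 33.3% of the 18 of the chemokine list, against 5.82% of all promoters. These list shares cover all members, called or not. The core was in 7.52% of the promoters of called genes and in 6.31% of those of tested genes. Among the kinds it was in 18.2% of promoters of the genes lowered after tFCI alone by call. In the other kinds of at least 10 genes it was in 3.12% to 13.3%. The Nfkbia promoter held 2 matches and that of Cxcl10 held 1, while the windows of Tnf, Ccl3, Il1b, Tlr2 and Slc2a6 held no match. The promoters of Nfkbia (chr12:55492598-55492897, minus strand) and Cxcl10 (chr5:92348840-92349139, minus strand) are shown with the matches in capitals because both genes were lowered in miKO-tFCI.
Nfkbia: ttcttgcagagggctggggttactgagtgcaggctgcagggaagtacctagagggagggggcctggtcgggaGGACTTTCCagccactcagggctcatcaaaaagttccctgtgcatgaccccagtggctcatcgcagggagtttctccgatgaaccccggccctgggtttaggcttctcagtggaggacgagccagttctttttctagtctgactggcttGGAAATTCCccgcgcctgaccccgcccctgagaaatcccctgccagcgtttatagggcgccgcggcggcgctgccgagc
Cxcl10: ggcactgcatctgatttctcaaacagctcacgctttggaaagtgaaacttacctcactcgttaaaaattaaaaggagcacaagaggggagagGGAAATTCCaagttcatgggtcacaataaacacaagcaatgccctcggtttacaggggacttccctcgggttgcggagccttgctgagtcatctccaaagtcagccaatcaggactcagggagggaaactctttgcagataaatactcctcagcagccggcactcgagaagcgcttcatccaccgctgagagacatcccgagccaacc

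Of 50 tested interferon-induced genes, 26 were called between the genotypes in Sham, where 18.1% of all genes were, and 3 after tFCI, where 9.9% of all genes were. For the interaction, 8 were called lower and 0 higher (16.0%, median -0.50), and the median difference between the genotypes was 0.64 in Sham and 0.13 after tFCI. With miKO-Sham replicates 1 and 2 summed, 12 were called. Lgals3bp, a secreted glycoprotein, was at 154, 184 and 165 CPM (WT-Sham), 751, 764 and 726 CPM (miKO-Sham), 640.2, 775 and 791 CPM (WT-tFCI) and 617, 834 and 925 CPM (miKO-tFCI), with WT-Sham apart and an interaction of -2.07 (SE 0.20, adjusted p = 6e-05). Bst2, which tethers budding viruses, was at 84.0, 86.5 and 65.1 CPM (WT-Sham), 179.5, 181 and 160.5 CPM (miKO-Sham), 209, 249.6 and 245 CPM (WT-tFCI) and 191, 248 and 210.2 CPM (miKO-tFCI), with an interaction of -1.26 (SE 0.21, adjusted p = 0.00349). Irf7, a transcription factor of the interferon response, had -1.19 (SE 0.25, adjusted p = 0.0152), and Oas1a (-1.14, SE 0.27, adjusted p = 0.0273) and the DNA sensor family members Ifi204 (-1.76, SE 0.23, adjusted p = 0.000592) and Ifi207 (-1.47, SE 0.25, adjusted p = 0.00392), which share sequence, went the same way. Ifi27l2a was raised in Sham and lowered after tFCI (-2.56, SE 0.33, adjusted p = 0.000553), and Cxcl10 was the one lowered in both. The core of the interferon-stimulated response element, GAAANNGAA, was in 61.4% of the 44 promoters of the list, whose members enter here whether called or not. It was in 8.56% of all promoters, 7.35% of those of tested genes and 8.99% of those of called genes. Among the kinds it was in 21.3% of the 61 promoters of genes raised in both surgeries. For genes raised in Sham and lowered after tFCI it was in 20.0% of 25 promoters. In the other kinds of at least 10 genes it was in 3.12% to 9.09%.

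Genes of injury-associated microglia, a state in which microglia near damage express lipid, lysosomal and surface receptor genes, had lower interactions throughout by estimate. Of 26 tested, 9 were called lower and 0 higher (34.6% against 3.82% of all genes, median -1.11 against -0.02), and the estimate was below 0 for all 26. The list was written with earlier results of these data known, so the shared direction is not independent support. With the summed library 8 were called. The median difference between the genotypes was 2.07 in Sham and 0.96 after tFCI, whereas Tlr2 went from 1.06 to -1.10. Besides Cst7, Clec7a, Apoe and Tlr2 the called members were Axl, Csf1, Cd9, Cd68 and Lilrb4a. Axl, a receptor for apoptotic cells, was at 14.1, 8.96 and 11.8 CPM (WT-Sham), 101, 89.5 and 72.2 CPM (miKO-Sham), 72.2, 76.4 and 83.2 CPM (WT-tFCI) and 103, 149.6 and 164 CPM (miKO-tFCI), with every miKO library above the WT libraries of the same surgery and an interaction of -2.07 (SE 0.28, adjusted p = 0.00086). Cd9, a tetraspanin, had -1.56 (SE 0.21, adjusted p = 0.000761). Csf1, a growth factor for microglia, had no call in Sham (0.49) and was lower after tFCI (-0.76), with an interaction of -1.25 (SE 0.27, adjusted p = 0.0179). Lilrb4a, an inhibitory receptor, had an interaction of -3.03 (SE 0.54, adjusted p = 0.00528).

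Lysosomal and lipid genes that were called all had a lower interaction. Of 35 lysosomal hydrolases and proton pump genes, 6 were lower and 0 higher (17.1%, median -0.45), and 4 were called with the summed library. Ctsd, the protease cathepsin D, was at 7628, 5929 and 5942 CPM (WT-Sham), 16238, 16494 and 12339.5 CPM (miKO-Sham), 13098, 13768 and 12886 CPM (WT-tFCI) and 11424, 14863 and 14413 CPM (miKO-tFCI), with WT-Sham below the other groups and an interaction of -1.17 (SE 0.25, adjusted p = 0.0182). Ctsz (-1.44, SE 0.24, adjusted p = 0.00357), Cd68 (-1.06, SE 0.22, adjusted p = 0.0133), the mannosidase gene Man2b1 (-0.84, SE 0.20, adjusted p = 0.0328) and the progranulin gene Grn (-0.92, SE 0.24, adjusted p = 0.0443) were called as well. Ctsb, cathepsin B, was raised in both surgeries with an interaction of -1.05 (SE 0.28, adjusted p = 0.0478), and on the CPM scale its genotype difference was greater after tFCI, by 1106 CPM. For Grn and Ctsb the adjusted p was 0.0548 and 0.0504 with the summed library. Of 21 genes of lipid handling, 4 were lower (19.0%, median -0.35), namely Apoe, Plin2, the cholesterol exporter Abcg1 (-1.04, SE 0.27, adjusted p = 0.0414) and Npc2, which moves cholesterol out of lysosomes (-0.95, SE 0.22, adjusted p = 0.0241). Abcg1 (adjusted p = 0.0774) and Apoe were not called with the summed library. Apoe and Plin2 were raised in both surgeries, Abcg1 and Npc2 in Sham alone by call. Among 24 scavenger and efferocytosis receptors, 4 were lower (16.7%), namely Scarb1 (-1.57, SE 0.23, adjusted p = 0.00144), Axl, Itgb3 (-0.95, SE 0.23, adjusted p = 0.0349) and Trem2. For Itgb3 the adjusted p was 0.0523 with the summed library.

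Among the pathway lists, leaving aside the markers of other cell types, heat shock chaperones were the one with calls in the higher direction alone. Of 18 tested, 4 were higher and 0 lower (22.2%, median 0.59). Hspb1, a small heat shock protein, was at 132, 95.2 and 88.1 CPM (WT-Sham), 8.61, 12.9 and 6.92 CPM (miKO-Sham), 79.7, 43.2 and 34.7 CPM (WT-tFCI) and 83.4, 25.5 and 22.9 CPM (miKO-tFCI). miKO-Sham was below all other libraries, the genotypes overlapped after tFCI, and replicate 1 was the highest of its group in WT-Sham, WT-tFCI and miKO-tFCI. Its interaction was 3.07 (SE 0.43, adjusted p = 0.00112). Hspa1b, an inducible HSP70 whose near-identical copy Hspa1a makes its counts uncertain, was at 2032, 1562 and 2476 CPM (WT-Sham), 536, 548 and 491 CPM (miKO-Sham), 144, 82.3 and 82.7 CPM (WT-tFCI) and 91.1, 73.0 and 72.2 CPM (miKO-tFCI), with WT-Sham above miKO-Sham and both above the tFCI groups. The interaction of Hspa1b was 1.59 (SE 0.27, adjusted p = 0.00446), that of Hsph1 2.02 (SE 0.28, adjusted p = 0.000981) and that of Dnaja1, an HSP70 cochaperone, 0.90 (SE 0.20, adjusted p = 0.0222).

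Genes that define microglia split between both directions. Of 25 tested identity genes, 3 were lower (Fcrls, Trem2 and Olfml3) and 2 were higher (Upk1b among them), 20.0% with a median of -0.31. Olfml3, a secreted protein of microglia, was at 2165, 2511 and 2474 CPM (WT-Sham), 1491, 1397 and 1609 CPM (miKO-Sham), 2557, 2691 and 2724 CPM (WT-tFCI) and 777, 886 and 1018 CPM (miKO-tFCI). miKO was below WT in both surgeries, with a difference between tFCI and Sham of -0.75 in miKO (called) and 0.16 in WT (not called) and an interaction of -0.91 (SE 0.19, adjusted p = 0.0152). Trem2, a lipid receptor, was at 1765, 1353 and 1202 CPM (WT-Sham), 2358, 2443 and 2079.6 CPM (miKO-Sham), 1159, 1155 and 1114 CPM (WT-tFCI) and 863, 1028 and 835 CPM (miKO-tFCI), with miKO-Sham the highest group and an interaction of -1.01 (SE 0.22, adjusted p = 0.0194). For Fcrls it was -0.91 (SE 0.24, adjusted p = 0.0469), with an adjusted p of 0.0531 with the summed library. Fcrls and Olfml3 are also among the microglia markers whose sum, given above, was lower in miKO-tFCI. For them that sum is not a separate observation, and its part in the interaction was not tested.

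The NRF2 and iron list had 2 lower genes, the metallothioneins Mt1 and Mt2, and 2 higher genes, Cp and the transporter Abcc1 (1.07, SE 0.21, adjusted p = 0.00898), 18.2% of 22. Of 26 genes of extracellular matrix and proteases, Mmp2 (-1.40, SE 0.27, adjusted p = 0.0101), Plaur (-1.99, SE 0.20, adjusted p = 8.68e-05) and the hyaluronan receptor gene Cd44 (-2.10, SE 0.31, adjusted p = 0.00159) were lower and Mmp14 (2.98, SE 0.50, adjusted p = 0.0037), which activates Mmp2, was higher (15.4%). Cd44 had the opposite sign on the CPM scale, by 68.5 CPM. The share of calls was close to that of all genes (3.82%) in cholesterol synthesis (4.55%, 1 of 22), glycolysis and the hypoxia response (3.7%, 1 of 27, Eno1), myeloid transcription factors (4.17%, 1 of 24, Batf) and complement (5.56%, 1 of 18, C5ar1). Of 12 neuronal and adhesion genes that are not of the myeloid lineage, 0 were called, with a median of 1.08. Each list was written with earlier results of these data known.

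**Figure D5:**
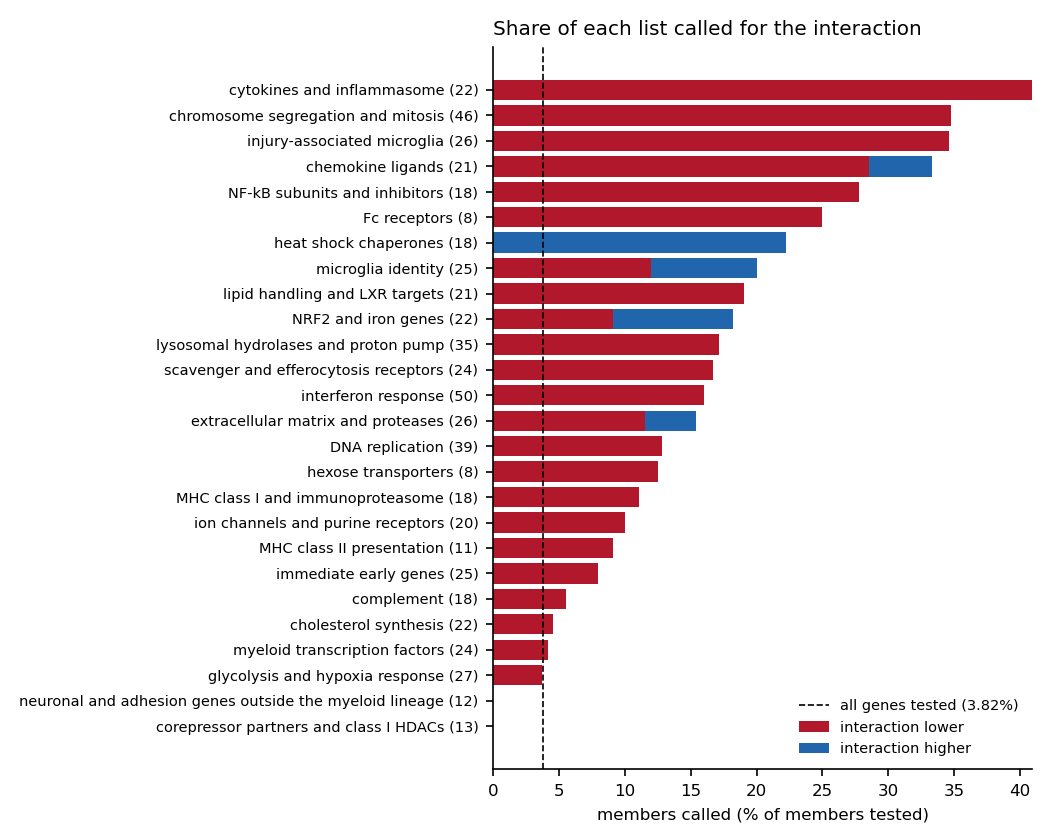
Share of the tested members of each gene list called for the interaction, in percent, lower in red and higher in blue, with the number of members tested and a dashed line at the 3.82% of all genes tested. Cytokines (40.9%), mitosis (34.8%) and injury-associated genes (34.6%) have the greatest shares, all of them lower, and heat shock chaperones (22.2%) are higher.

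The kinds also differed in the size of their genes. The 139 genes lowered in Sham alone by call had a median summed exon length of 6228 bases and a median span of 72693 bases, against 3746 and 17714 bases over all genes tested. In the kinds with a lower interaction and at least 10 genes the median exon length ran from 2606 to 3412 bases and the span from 9497 to 15013 bases. Of the 629 genes, 563 were protein coding, and 186 (29.6%) shared exon sequence with a gene on the other strand, against 34.4% of the genes tested. Counts that do not mark strand cannot tell such partners apart. With miKO-Sham replicates 1 and 2 summed, 501 of the 629 genes were called and 475 stayed in the same kind, and with replicate 2 placed in batch 1 these numbers were 625 and 584.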

How the data were processed

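RNA of sorted CD45int CD11b+ cells was sequenced as paired ends after a SMART-Seq v4 library preparation, which does not mark strand. The submitters' processing notes name FastQC 0.11.9, Trim Galore, HISAT2 2.2.1, SAMtools and HTSeq 1.99.2, and the builds mm10 and GRCm38.p6. Raw counts per gene were deposited by the authors for each library, without normalization, and reads on no gene (45.3% to 52.5% of those counted) stayed out of all steps. The labels name a CytoFLEX SRT sorter and the methods a Cytek Aurora.

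Groups and batches came from the labels. In R 4.3.3, edgeR 4.0.16 was run with filterByExpr, TMM (factors 0.864 to 1.11) and one quasi-likelihood fit of the 12 libraries with terms for group and batch (7 residual degrees of freedom, biological coefficient of variation 0.199 in common). P-values were adjusted by Benjamini-Hochberg over the 16451 genes, and 0.05 was the threshold. Fold changes are on the log2 scale. The steps were tested on simulated data. DESeq2 1.42.0, other normalizations, filters, batch terms, a replicate block and leaving out each library were the alternatives, and moving or summing miKO-Sham libraries was chosen after seeing the data. Symbols and coordinates came from GENCODE M21 (GRCm38), which matched 55141 identifiers, and promoters from RefSeq (GRCm38.p6).

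Among called genes with a symbol that is not a Gm or Rik name, at least 10 CPM in the highest group, over 3 counts in 1 library of every group and the same sign in both batches, the text names the 5 with the largest interaction in each of the 6 fullest kinds. It also names the called members of gene lists with at least 3 calls and a share above that of all genes, and Hdac3, Cx3cr1 and Slc2a6. Some genes that enter the counts are not reported by name here. Members and lists were chosen with earlier results of these data known. Each library is a pool of animals, so p-values measure the spread between pools, and intervals within a library were not used. This holds only if miKO-Sham replicates 1 and 2 are separate pools, which was not tested. Otherwise the main fit counts the same pool more than once.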

Additional observations from a re-analysis of the deposited data

Results flagged for a closer look

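The genotypes differed unequally in Sham and after tFCI for 629 genes, by the test of the interaction itself. Of these, 28 genes were called above WT in Sham and below WT after tFCI, Tnf, Ccl3 and Mki67 among them. The opposite pattern, below WT in Sham and above WT after tFCI, was found for 12 genes, which include Nbl1. With miKO-Sham replicates 1 and 2 summed, 22 of the 28 and 8 of the 12 kept this pattern.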

How the results depend on the processing

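None of the 105 named genes that were called changed sign under an alternative fit, and 1 of the 629 called genes had opposite signs within batch 1 and batch 2. All had been called on these same libraries, and genes named by size also needed the same sign in both batches. A stable sign was therefore largely set by the selection. The number called for the interaction was 999 with DESeq2 (626 of the 629 shared), 1272 without a filter on low counts and 303 without the batch term, and it ranged from 281 (without WT-tFCI replicate 2 or 3) to 883 when 1 library was left out, with 329 and 315 without WT-Sham replicates 2 and 3 and 383 without miKO-Sham replicate 1. For the genotype effect after tFCI it was 745 without the batch term, 2466 without the filter and 616 to 1900 (without miKO-Sham replicate 2) when 1 library was left out, and 703 without WT-tFCI replicate 2. A replicate block gave 612 genes (579 shared) in place of 629. Same-numbered libraries of different groups deviated together at a correlation above 0.1 in only 11 of 18 pairs, so the numbers share a batch label but were not taken as pairs. The batch 2 libraries alone gave 513 genes, 378 of them shared.

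Of the 105 named genes that were called, 55 stayed called under every alternative, and 356 of 2288 values fell short of the threshold. With 1 library left out, the uncalled interaction of Hdac3 ranged from -0.0525 (without miKO-tFCI replicate 1) to 0.2767, and that of Cx3cr1 from -0.3042 to 0.0201 (without the same library). In batch 2 alone it was 0.0793 for Cx3cr1. On the CPM scale 19 called genes had the opposite sign. At this depth, genes under about 1 CPM rest on few counts in a library.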

Other observations

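Some lists outside the text above held 1 or 2 called genes each, where 3.82% of all genes tested were called. Of 10 Fc receptor genes, 8 were tested and 2 were lower, Fcgr4 and Fcrls. Among 18 genes of MHC class I and the immunoproteasome, H2-D1 and B2m were lower, and of 11 genes of MHC class II presentation H2-DMa was. Ier3 and Myc were the called immediate early genes (2 of 25, both lower), and Kcnj2 and Trpm2 the called ion channel genes (2 of 20, both lower). Of 8 tested hexose transporter genes, Slc2a6 was the one called.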
